A study of Nannochloropsis oceanica with 36 samples.

Results

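The genes described here are 66 gene models of the marine alga Nannochloropsis oceanica IMET1 whose transcript levels differed between nitrogen-deprived (N-deprived) and nitrogen-replete (N-replete) medium at 12 h after transfer, with little difference before or after. They were chosen from the expression values themselves, given as FPKM, fragments mapped to a gene scaled by transcript length and library size. The rule took gene models that reached 1 FPKM in 3 or more libraries. It set d, at each time, as the mean log2(FPKM + 1) of the 3 N-deprived libraries minus that of the 3 N-replete libraries. A member had a d of at least 1 in size at 12 h, a mean d under 0.4 in size over 3, 4 and 6 h and over 24 and 48 h, and a d under 1 in size at 48 h. Of 9756 gene models 9647 entered, and 66 of these (0.684%) were members: 39 with a higher level in N-deprived medium at 12 h, called rises here, and 27 with a lower level, called falls.

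The cells were of 1 strain. Before transfer they grew at 25 °C in constant light (a photon flux of 50 µmol), with 1 g/l NaNO3 and bubbled with air holding 1.5% CO2. In mid-logarithmic phase they were washed and moved to N-deprived or N-replete medium under the same light. Each medium had 3 biological replicate cultures at each of 3, 4, 6, 12, 24 and 48 h. This gave 12 groups and 36 libraries. The labels do not say whether the same cultures were sampled at every time. The molecule label reads nuclear RNA, while the extraction protocol describes total RNA with poly(A) selection and the source label reads whole cells. The N-replete cells had been washed and moved as well, so a comparison of the media at 1 time holds that handling constant, while a comparison between times does not.

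Nitrogen is needed for amino acids, nucleotides and chlorophyll, and microalgae deprived of it slow their growth, take down part of their photosynthetic pigment and recycle nitrogen from protein. Nannochloropsis belongs to the eustigmatophytes, a class of algae with plastids of red algal origin, and is known for building up triacylglycerol when nitrogen runs out. Transcript responses to such a change are often divided into those seen within hours of transfer and those that last; the genes here belong to neither kind by their rule. The files give the 66 members by identifier only, so the roles of the encoded proteins are not given and the members are ordered by the shape of their time course.

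Summed FPKM lay between 475304 and 629498 per library. Fragment numbers were not given, but low FPKM values could be fitted as steps of single fragments. Of 2023 low values from 97 genes, 93.5% were whole within 0.1 fragment. The steps were fitted to these same values, so that share describes the fit and is no separate support for it. The relative depth fitted from these steps ran from 0.696 to 2.66 over all libraries and from 0.735 to 1.61 over those of 12 h. The 12 h libraries, 6 in all, were set off from the remaining 30 whatever the medium. Along principal component 1, which held 53.1% of the variance, they lay at 96.9 to 102.1, against -44.4 to 5.0 for the rest. The component was computed on FPKM as deposited, without centring of libraries. On that scale the median 12 h change of all genes was -0.69, against -0.04 with each library centred on its median log2 ratio. How much of the distance comes from scaling was not tested. Every result on 12 h rests on these 6 libraries, and the handling of the 12 h samples and the state of the cultures at that time cannot be told apart. Summed FPKM was lower in every N-deprived than in every N-replete library at all 6 times, at 12 h with 475304 to 525082 in N-deprived and 532703 to 618135 in N-replete libraries. The median d of all genes at 12 h was 0.10. FPKM is a share of a library's RNA, so fewer transcripts per cell and more RNA of other genes cannot be told apart.

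Few of the genes with a large difference at 12 h met the other limits. On the log2(FPKM + 1) scale, 399 genes (4.14% of those that entered) were past 2-fold upward in N-deprived medium at 12 h. Another 374 (3.88%) were past 2-fold downward. Of these 773, 8.5% were members. Of the 773, 487 lay outside the limit on the mean of 3, 4 and 6 h, 669 outside that on the mean of 24 and 48 h and 453 outside that at 48 h. Membership was sharp only by definition: the weakest rise, scaffold00140.g4829, had a d of 1.00 at 12 h and the next gene that missed this limit alone, scaffold00043.g2069, 0.98. Among the falls scaffold00182.g5679 and scaffold00247.g7011 stood at -1.01 and scaffold00145.g4869 at -0.9996 outside them. A further 21 genes with a d from 0.9 to 1 and 15 with a d from -1 to -0.9 met all other limits. The d of the rises at 12 h ran from 1.00 to 1.54, with a median of 1.13, and that of the falls from -1.87 to -1.01, with a median of -1.08.

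**Figure D1:**
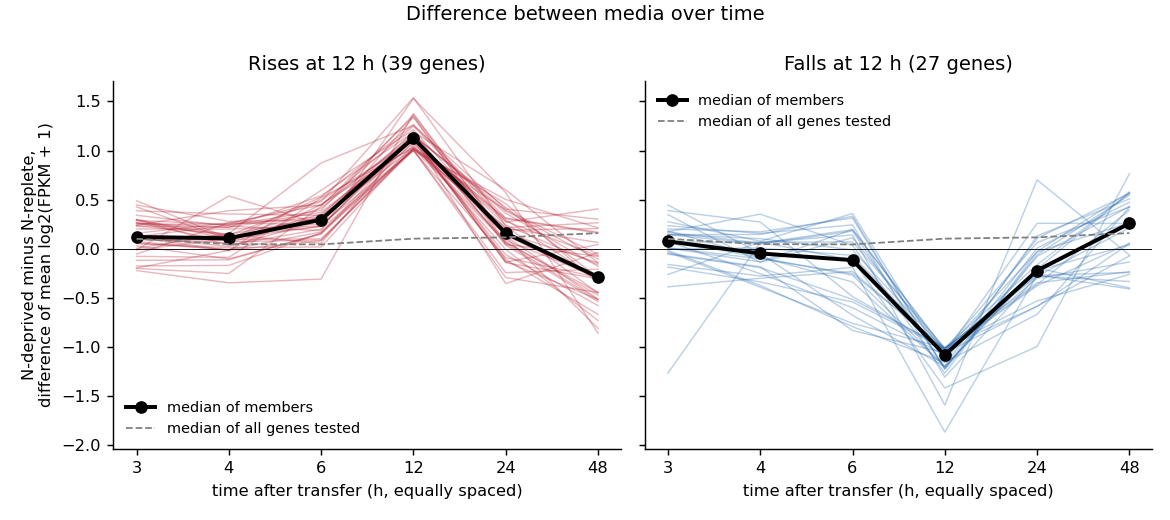
Difference between media (N-deprived minus N-replete, mean log2(FPKM + 1), vertical axis) at each of the 6 times (horizontal axis, equally spaced) for each of the 39 rises and 27 falls; thin lines are genes, the black line is their median and the dashed line the median of all genes tested. The peak at 12 h is set by the rule; the median of the rises stood at 0.30 at 6 h and -0.29 at 48 h.

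The name "only at 12 h" held on average and less so at single times, because the rule limits means over times. Transcripts of scaffold00245.g6412 differed by -1.27 at 3 h as well as by -1.59 at 12 h, the 1 member past 2-fold at another time. The d of scaffold00247.g6759 was -0.996 at 24 h, at low levels of 1.27 FPKM in N-deprived and 3.77 FPKM in N-replete medium. At 6 h, 12 of the 39 rises had a d of at least 0.4 and 8 of the 27 falls a d of -0.4 or below, with no member that far on the other side. Over all genes tested, 10.2% had a d of at least 0.4 at 6 h and 8.68% a d of -0.4 or below. The values of scaffold00247.g6746 show the most marked case, with a d of 0.00 at 3 h, 0.15 at 4 h, 0.87 at 6 h, 1.26 at 12 h and 0.40 at 24 h. At 48 h the lean was the other way: 13 of the 39 rises had a d of -0.4 or below and 11 of the 27 falls a d of at least 0.4, with 1 rise and 1 fall that far on their own side. Over all genes, 22.7% had a d of -0.4 or below at 48 h and 35.2% a d of at least 0.4, and the limit on the mean of 24 and 48 h bears on this lean. All 66 members had 12 h libraries that did not overlap between media, which the rule makes likely; among all genes tested 35.3% had N-deprived libraries wholly above and 22.5% wholly below. For 18 rises the order was turned round at 48 h without overlap, as for 9.76% of all genes, and for 13 falls likewise, as for 7.28%. Since the rule sets the order at 12 h, the nearer background is the genes apart at 12 h in the same direction, of which 27.7% and 32.3% were turned round, against 46.2% of the rises and 48.1% of the falls. The limits on d at 24 and 48 h also shape these shares, and nothing is read from them.

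A difference of this kind can come from a departure of either medium. Each medium's level at 12 h was therefore set against the mean of its own other 5 times, with 0.5 on the log2 scale as the limit for a departure. This is a description in which the difference between the media is fixed by the rule, and the shares of all genes are given beside it. It used FPKM as deposited, where the median departure over all genes was -0.68 (N-deprived) and -0.69 (N-replete). With each library centred on its median log2 ratio, the median 12 h change of all genes, both media averaged, was -0.04 in place of -0.69. Which medium is said to depart can therefore depend on the scaling, and the classes under centring are not given here. Among the rises, 13 departed upward in N-deprived medium alone (2.90% of all genes) and 10 downward in N-replete medium alone (7.31%). A further 12 departed upward in both media and further in N-deprived medium (5.94%). The last 4 departed downward in both media and less far in N-deprived medium (26.4%). Among the falls, 15 departed upward in both media and less far in N-deprived medium (7.34% of all genes). Another 6 departed downward in both media and further in N-deprived medium (26.5%), 4 downward in N-deprived medium alone (6.88%) and 2 upward in N-replete medium alone (2.55%).

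**Figure D2:**
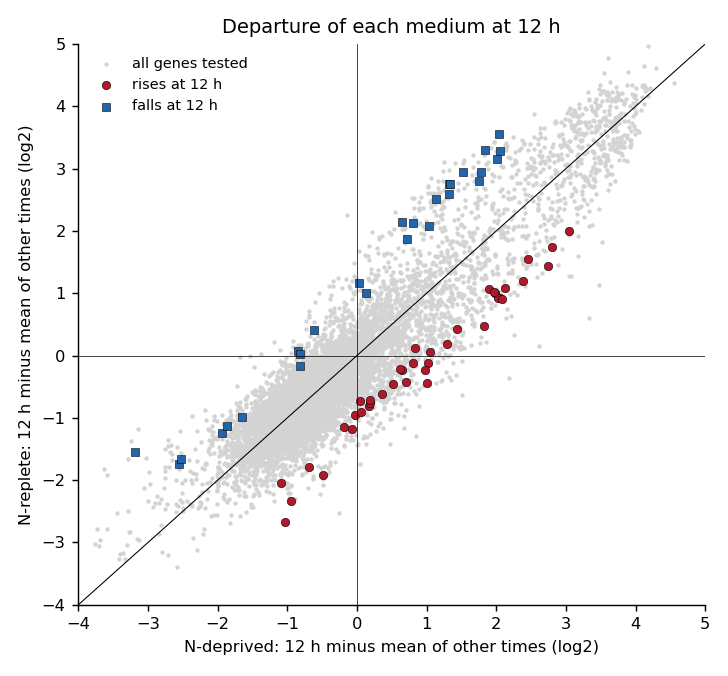
Departure at 12 h from the mean of the other 5 times (log2(FPKM + 1)) in N-deprived medium (horizontal) and N-replete medium (vertical); red circles are rises, blue squares falls, grey points all genes tested, and the diagonal marks equal departures. The distance of members from the diagonal is set by the rule; their departures run from -3.19 to 3.05 in N-deprived medium.

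Among the largest rises were genes whose level in N-replete medium was lower at 12 h than at other times. The short gene model scaffold00113.g4093 (scaffold00113, positions 6230 to 6641; 412 bp) stood at 10.4, 10.9 and 8.55 FPKM in N-deprived libraries at 12 h, against 1.63, 3.89 and 3.13 FPKM in N-replete libraries. At 6 h it had averaged 24.1 FPKM in N-deprived and 17.7 FPKM in N-replete medium, and at 24 h 14.2 and 12.2 FPKM. Both media were thus low at 12 h and the N-replete medium was the lower, with a d of 1.54, a 2.90-fold difference on the log2(FPKM + 1) scale, the largest among the rises. The added 1 FPKM holds this fold down, since the N-replete level is near it.

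Transcripts of scaffold00162.g5298 (scaffold00162, 284602 to 284921; 320 bp), the most abundant rise, stood at 82.8, 87.4 and 97.2 FPKM in N-deprived libraries at 12 h, against 27.5, 34.8 and 28.6 FPKM in N-replete libraries. The libraries of the media lay far apart at 12 h, and apart the other way at 48 h, at 71.0 ± 1.42 FPKM in N-deprived and 130 ± 0.778 FPKM in N-replete medium (n = 3 each, SD). Those of scaffold00330.g9205 (scaffold00330, 176279 to 176682; 404 bp) were scarcer and stood at 8.59, 7.94 and 8.55 FPKM in N-deprived against 3.96, 3.47 and 1.11 FPKM in N-replete libraries at 12 h. N-replete replicate 3 was the lowest of these, and the group means at 24 h were 24.7 FPKM in N-deprived and 22.8 FPKM in N-replete medium. A longer gene of the same shape, scaffold00026.g1035 (scaffold00026, 97500 to 99374), stood at 10.7, 11.6 and 11.2 FPKM in N-deprived against 4.65, 4.50 and 4.22 FPKM in N-replete libraries at 12 h, after means of 46.7 FPKM in N-deprived and 37.2 FPKM in N-replete medium at 6 h. It is 1 of 5 rises that met the rule under all 13 other ways of computing it (other pseudocount, filter and scaling, and libraries left out).

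In another set of rises, with FPKM as deposited, the N-replete level at 12 h was low while the N-deprived level stayed at that of other times. Transcripts of scaffold00096.g3681 (scaffold00096, 645579 to 648935) averaged between 12.2 and 15.2 FPKM in N-deprived medium at all 6 times and between 11.7 and 14.5 FPKM in N-replete medium at the 5 times other than 12 h. At 12 h they stood at 14.3, 13.1 and 14.8 FPKM in N-deprived libraries, against 6.27, 6.88 and 5.95 FPKM in N-replete libraries. As deposited, these values show a flat course in N-deprived cells and a single low time in N-replete cells. The departures of scaffold00096.g3681 at 12 h were 0.06 (N-deprived) and -0.91 (N-replete), against medians over all genes of -0.68 and -0.69. Set against those medians, the N-deprived level was the further off, on the high side. Which medium departed thus depends on the scaling for this gene. The long gene models scaffold00340.g9691 (7226 bp) and scaffold00308.g8807 (7546 bp, the longest member) were of this set too, at 40.8 ± 1.39 and 31.6 ± 2.17 FPKM in N-deprived against 18.3 ± 0.846 and 14.1 ± 0.693 FPKM in N-replete medium at 12 h (n = 3 each, SD). Their departures at 12 h were -0.03 and 0.05 in N-deprived medium and -0.95 and -0.72 in N-replete medium. Against the medians over all genes the N-deprived level was again the further off, on the high side, in both genes.

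A further set peaked at 6 to 12 h with the higher level at 12 h in N-deprived medium. Transcripts of scaffold00247.g6646 (scaffold00247, 316388 to 319547) averaged 4.56, 8.45, 40.5, 38.3, 10.03 and 5.96 FPKM in N-deprived medium over the 6 times in order, against 4.14, 6.90, 30.8, 14.4, 9.24 and 11.1 FPKM in N-replete medium. The 12 h libraries were at 38.9, 43.0 and 33.1 FPKM in N-deprived and 11.8, 13.5 and 17.9 FPKM in N-replete medium. Both media were near their highest at 6 h, and at 12 h the N-deprived libraries were still near that level while the N-replete ones stood below it. In scaffold00009.g589 (scaffold00009, 720517 to 722456) the N-replete level was likewise lower at 12 h than at 6 h, while the N-deprived level rose further. The gene averaged 41.2 FPKM in N-deprived and 30.9 FPKM in N-replete medium at 6 h. At 12 h it stood at 53.2 and 23.1 FPKM, and at 24 h at 12.8 and 14.0 FPKM.

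Other rises had a peak at 12 h in both media. Among them, scaffold00247.g6587 (scaffold00247, 131016 to 134230) stood at 15.5, 16.4 and 32.1 FPKM in N-deprived libraries at 12 h, against 7.27, 10.4 and 5.17 FPKM in N-replete libraries. N-deprived replicate 3 was the highest, and with replicate 3 left out of every group d was 0.80 in place of 1.34. Transcripts of scaffold00247.g6574 (scaffold00247, 85304 to 88161) stood at 28.7, 31.6 and 32.5 FPKM in N-deprived libraries at 12 h, against 13.6, 14.4 and 12.9 FPKM in N-replete libraries. Their group means at the other 5 times lay between 2.09 and 4.82 FPKM in N-deprived and between 2.11 and 3.903 FPKM in N-replete medium. Those of scaffold00185.g5886 (scaffold00185, 402528 to 404851) averaged 57.4 ± 3.30 FPKM in N-deprived and 25.8 ± 2.94 FPKM in N-replete medium at 12 h (n = 3 each, SD). At 6 h scaffold00185.g5886 averaged 12.1 FPKM in N-deprived and 9.80 FPKM in N-replete medium and at 24 h 9.24 and 10.3 FPKM, so its peak too stood at 12 h in both media, 2.18-fold higher in N-deprived cells on the log2(FPKM + 1) scale.

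**Figure D3:**
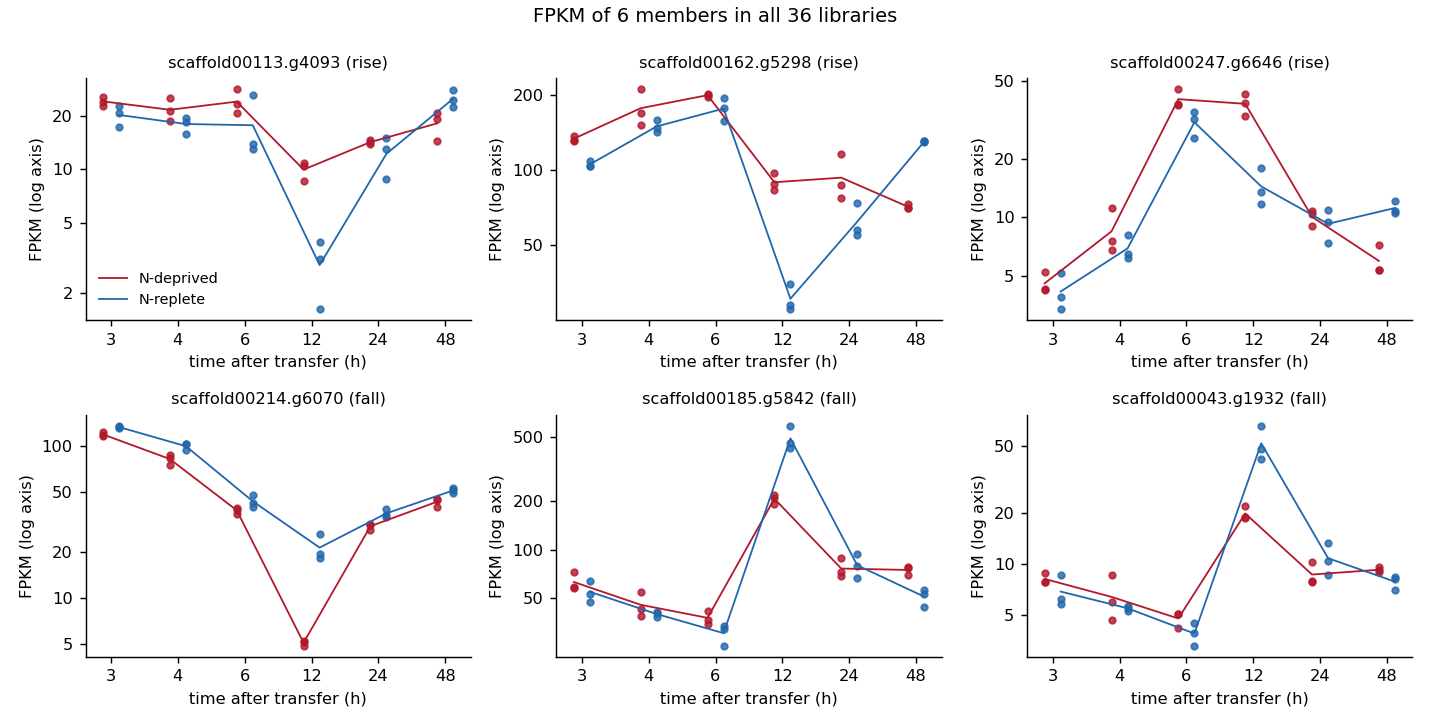
FPKM (log axis) of 3 rises (top) and 3 falls (bottom) in each of the 36 libraries against time after transfer; points are libraries, lines join group means, red is N-deprived and blue N-replete medium. At 12 h the 3 libraries of each medium lie apart in all 6 genes, with scaffold00113.g4093 at 8.55 FPKM or more in N-deprived and 3.89 FPKM or less in N-replete medium.

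The deepest fall was a gene that was low at 12 h in both media. Transcripts of scaffold00214.g6070 (scaffold00214, 13490 to 17291) stood at 4.85, 5.15 and 5.22 FPKM in N-deprived libraries at 12 h, against 26.4, 18.4 and 19.5 FPKM in N-replete libraries. Their group means were 119, 81.9 and 37.7 FPKM in N-deprived and 133, 99.5 and 43.2 FPKM in N-replete medium at 3, 4 and 6 h, and 29.6 and 43.0 FPKM against 36.0 and 51.0 FPKM at 24 and 48 h. The levels of the media lay close until 6 h, and at 12 h the N-deprived level was 3.65-fold lower on the log2(FPKM + 1) scale, a d of -1.87. The most abundant member, scaffold00182.g5679 (scaffold00182, 867016 to 869140), was also low at 12 h in both media, with 295, 274 and 281 FPKM in N-deprived against 591, 477 and 665 FPKM in N-replete libraries at 12 h, after 3275 FPKM in N-deprived and 3252 FPKM in N-replete medium at 3 h. It was 1 of 2 falls nearest the limit, and it met the rule in 6 of the 13 other computations. With quantile normalization its d at 12 h was -0.49.

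Falls with a blunted peak formed the largest set. Transcripts of scaffold00185.g5842 (scaffold00185, 263436 to 268023) stood at 192, 218 and 210 FPKM in N-deprived libraries at 12 h, against 583, 425 and 462 FPKM in N-replete libraries. At 6 h they averaged 37.8 FPKM in N-deprived and 30.4 FPKM in N-replete medium, and at 24 h 76.4 and 80.0 FPKM, so that the media differed little on either side of the peak. Those of scaffold00043.g1932 (scaffold00043, 1161646 to 1164989) stood at 18.9, 22 and 18.9 FPKM in N-deprived against 65.2, 47.8 and 41.8 FPKM in N-replete libraries at 12 h. Those of scaffold00007.g54 (scaffold00007, 148376 to 149886) stood at 69.2, 85.3 and 67.3 FPKM in N-deprived against 199.9, 158 and 165 FPKM in N-replete libraries. In these 3 genes every N-replete library was higher than every N-deprived one by a wide margin, and N-replete replicate 1 was the highest each time. With quantile normalization the d of scaffold00185.g5842 was -0.79, against -1.23 as deposited. The genes scaffold00043.g1789 and scaffold00355.g10407 peaked in the same way at lower levels, at 23.7 ± 1.77 and 13.1 ± 1.12 FPKM in N-deprived against 56.0 ± 6.97 and 27.7 ± 3.18 FPKM in N-replete medium (n = 3 each, SD).

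A single library carried much of the spread of some falls. Transcripts of scaffold00245.g6412 (scaffold00245, 49166 to 51460) stood at 46.9, 41.4 and 38.5 FPKM in N-deprived libraries at 12 h, against 60.6, 179 and 198 FPKM in N-replete libraries, where replicate 1 lay far below the others. Without that library its d at 12 h was -2.13 in place of -1.59. The short model scaffold00247.g6759 (scaffold00247, 618062 to 618356; 295 bp, the shortest member) stood at 5.14, 3.78 and 4.75 FPKM in N-deprived against 11.2, 10.5 and 22.1 FPKM in N-replete libraries, with replicate 3 the highest. In the 4 falls that departed downward in N-deprived medium alone, with FPKM as deposited, d at 6 h lay between -0.76 and -0.49. The level of scaffold00182.g5507 (scaffold00182, 427057 to 428381) stood at 21.2 FPKM in N-deprived and 34.5 FPKM in N-replete medium at 6 h, and at 25.7, 25.8 and 21.4 FPKM against 62.9, 49.7 and 59.2 FPKM at 12 h. Its departures at 12 h were -0.61 (N-deprived) and 0.41 (N-replete), against medians over all genes of -0.68 and -0.69. Set against those medians, the N-replete level was the further off, on the high side. Which medium departed thus depends on the scaling for scaffold00182.g5507 too. The 2 falls that departed in N-replete medium alone were scaffold00330.g9571, whose level was highest at 24 h in both media (112 FPKM in N-deprived and 179 FPKM in N-replete medium), and scaffold00330.g9636.

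The rule used the differences between media, and the comparisons that follow used the mean of both media over time. Both come from the same libraries, and a mean and a difference are unrelated only where the media have equal spread. At 12 h the SD on the log2 scale was larger in N-replete than in N-deprived libraries for 29 of the 39 rises, 19 of the 27 falls and 6154 of the 9647 genes tested, so comparisons that include 12 h are not independent of the rule. The comparison of 6 with 3 h uses no 12 h library. The rule's limit on the mean of 3, 4 and 6 h did use the 3 and 6 h libraries. The spread of the media at 3 and 6 h was not compared, so independence from the rule is not shown there either. In all, 3 such comparisons were tested over all 9647 genes with limma, a linear model with moderated variances, and called at a Benjamini-Hochberg adjusted p under 0.05. Between 3 and 6 h, 34 of the 39 rises (87.2%) were called higher and 2 lower. The shares over all genes tested were 39.3% higher and 37.0% lower, or 76.3% either way. At least 2-fold higher were 24 rises (61.5%), against 9.22% of all genes. Of the 27 falls, 22 (81.5%) were called lower and 4 higher, and 7 (25.9%) were at least 2-fold lower, against 5.15% of all genes. The median change from 3 to 6 h was 1.20 on the log2 scale in the rises, -0.67 in the falls and 0.01 over all genes. Most rises were thus genes whose mean over both media rose between 3 and 6 h, and most falls genes whose mean fell in that span. The same shares were not computed among the 399 and 374 genes past 2-fold at 12 h. Whether the early change is particular to the members is therefore not shown.

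Single genes showed the size of these early changes. The rise scaffold00247.g6646 was 2.77 higher on the log2 scale at 6 h than at 3 h as the mean of both media (SE 0.116; limma, adjusted p = 1.39e-19), and scaffold00009.g589 was 2.58 higher (SE 0.126; limma, adjusted p = 5.5e-18). The fall scaffold00182.g5679 fell by 1.99 (SE 0.0788; limma, adjusted p = 3.17e-20) and scaffold00214.g6070 by 1.62 (SE 0.0619; limma, adjusted p = 1.41e-20). Against the common direction, the rise scaffold00330.g9205 fell by 0.51 (SE 0.171; limma, adjusted p = 0.00894) and the fall scaffold00245.g6412 rose by 1.46 (SE 0.177; limma, adjusted p = 9.37e-09). The rise with the largest d, scaffold00113.g4093, was not called (-0.13, SE 0.145; limma, adjusted p = 0.423), and was 1 of 3 rises for which the comparison did not pass.

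**Figure D4:**
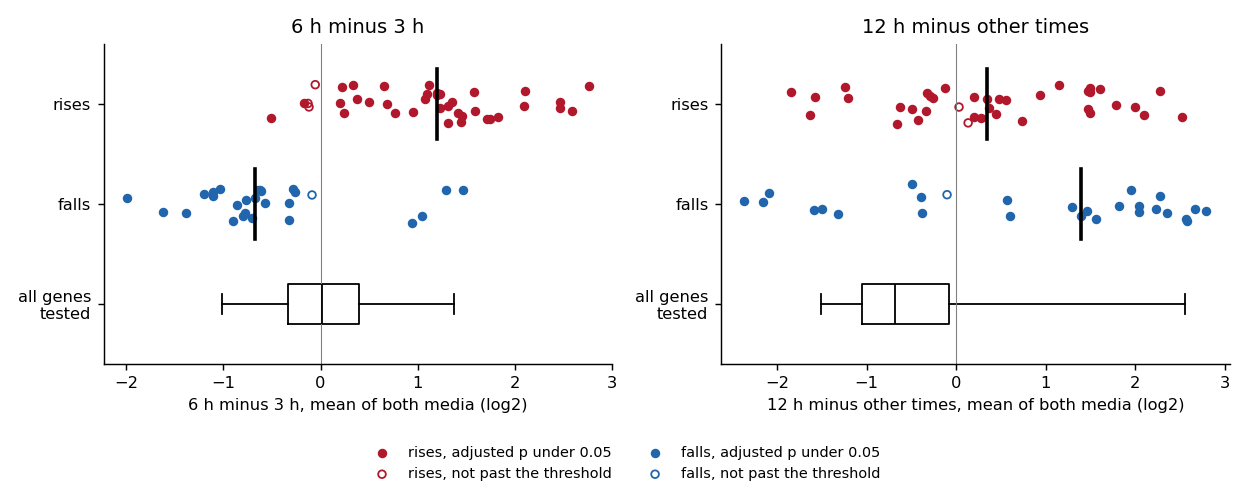
Change from 3 to 6 h (left) and of 12 h against the mean of the other 5 times (right), as the mean of both media on the log2 scale; each point is a gene, filled where limma's adjusted p is under 0.05, black bars are medians, and the box shows the quartiles of all genes tested with whiskers at the 5th and 95th percentiles. Rises lie mostly above 0 and falls mostly below 0 in the change from 3 to 6 h, with medians of 1.20 and -0.67.

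The third of these comparisons set 12 h against the mean of the other 5 times. As the mean of both media, 12 h stood higher than the other times for 23 of the 39 rises (59.0%) and 17 of the 27 falls (63.0%), against 21.2% of all genes tested, and lower for 14 rises (35.9%) and 9 falls (33.3%), against 74.0%. The median was 0.34 in the rises and 1.40 in the falls, against -0.69 over all genes. That last value depends on the scaling: with each library centred on its median log2 ratio it was -0.04, and 41.5% of all genes were called higher and 45.8% lower. The rises then became 32 higher and 5 lower and the falls 21 higher and 6 lower. With quantile normalization, where the median of all genes was -0.31, they were 27 and 7, and 18 and 6. The largest common peaks were those of scaffold00245.g6412 at 2.80 (SE 0.137; limma, adjusted p = 8.63e-19), scaffold00043.g1789 at 2.67 (SE 0.094; adjusted p = 1.41e-22) and scaffold00355.g10407 at 2.58 (SE 0.0841; adjusted p = 1.84e-23) among the falls. Among the rises it was that of scaffold00247.g6574 at 2.52 (SE 0.0763; limma, adjusted p = 2.66e-24). The deepest common lows were those of the fall scaffold00214.g6070 at -2.37 (SE 0.0479; limma, adjusted p = 2.33e-28) and the rise scaffold00330.g9205 at -1.85 (SE 0.133; adjusted p = 1.89e-14). In all, 3 members did not pass, the rises scaffold00247.g6771 and scaffold00145.g4938 and the fall scaffold00182.g5507.

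Put together, the tested comparisons gave each direction a most frequent course. Called higher at 6 h than at 3 h and higher at 12 h than at other times were 21 of the 39 rises (53.8%), against 13.2% of all genes. Called lower at 6 h than at 3 h and then higher at 12 h were 13 of the 27 falls (48.1%), against 3.85% of all genes. The 12 h part of both courses is not independent of the rule. Its share over all genes also depends on the scaling, with 21.2% called higher at 12 h as deposited and 41.5% with centring. The late comparison, 24 and 48 h less 3, 4 and 6 h, set the directions apart less: 22 falls (81.5%) were higher late and 4 lower, while 17 rises (43.6%) were higher and 18 (46.2%) lower, against 46.5% and 37.8% of all genes (84.3% either way). At least 2-fold higher late were 2 falls (7.41%; scaffold00245.g6412 and scaffold00330.g9571), against 4.00% of all genes, and at least 2-fold lower 2 rises (5.13%; scaffold00080.g2507 and scaffold00026.g1440), against 4.74%. These shares are near the background. Both pairs were named after their values were seen.

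Of the members, 7 were next to another member of the same direction, in 4 neighbouring pairs among 9289 neighbouring pairs of genes tested. On scaffold00247 a run of 3 short rises, scaffold00247.g6771 (661762 to 662366), scaffold00247.g6772 (662373 to 662897) and scaffold00247.g6773 (662955 to 663707), had 6 and 57 bases between them. At 12 h the first stood at 30.6, 28.6 and 27.8 FPKM in N-deprived against 10.6, 10.4 and 15.3 FPKM in N-replete libraries. The second stood at 43.4, 47.0 and 35.9 against 13.6, 16.6 and 17.5 FPKM, and the third at 43.4, 54.8 and 39.6 against 17.6, 22.9 and 25.8 FPKM. All 3 were highest at 6 h in both media and their d at 12 h was 1.21, 1.35 and 1.03, against 0.65 and 0.07 in the genes on either side. Whether such closely spaced models are separate genes or parts of 1 transcript was not tested, and the libraries were made without strand.

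The pair of rises on scaffold00082, scaffold00082.g2949 (318285 to 321376) and scaffold00082.g2950 (321446 to 325070), lay 69 bases apart. They stood at 26.4 ± 0.724 and 13.4 ± 1.49 FPKM in N-deprived against 11.5 ± 1.11 and 5.93 ± 0.689 FPKM in N-replete medium at 12 h (n = 3 each, SD), with a d of -0.14 and 0.17 in the genes on either side. The pair of falls on scaffold00247, scaffold00247.g6758 (616792 to 617806) and scaffold00247.g6759, lay 255 bases apart, with a d of -1.22 and -1.42 between neighbours at -0.05 and -0.02. The first stood at 107, 118 and 96.4 FPKM in N-deprived against 317, 210 and 232 FPKM in N-replete libraries. The second had low levels, with means of 2.56 FPKM in N-deprived and 2.28 FPKM in N-replete medium at 6 h. Its N-deprived replicate 1 was at 0 FPKM at 4 and 6 h, so its d is less certain.

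**Figure D5:**
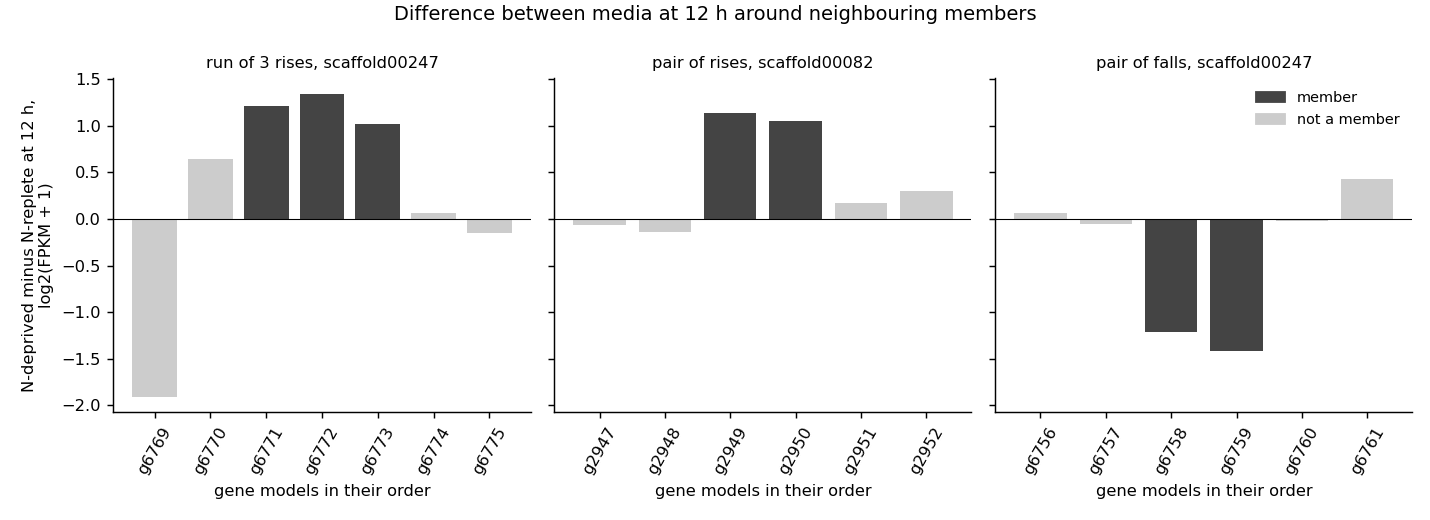
Difference between media at 12 h (N-deprived minus N-replete, log2(FPKM + 1)) for the members that neighbour each other and the gene models around them, in their order on the scaffold; dark bars are members, light bars are not. The run scaffold00247.g6771 to scaffold00247.g6773 stands at 1.21, 1.35 and 1.03, next to 0.65 and 0.07; scaffold00247.g6769, which lies beyond, stands at -1.91.

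The members lay on 30 of 283 sequences that hold a gene tested, 12 of them on scaffold00247, which holds 4.57% of the genes tested and 18.18% of the members. This sequence is named because it held the most members of the 30. Its count includes the run scaffold00247.g6771 to scaffold00247.g6773 and the pair scaffold00247.g6758 and scaffold00247.g6759. Each of these models counts as a member, and whether they are separate genes was not tested. The median locus length was 2324 bp in the rises and 2264 bp in the falls, against 2135 bp over all genes tested, and loci under 1000 bp made up 23.1% of the rises, 7.41% of the falls and 10.8% of all genes. The median of mean FPKM over all libraries was 17.4 in the rises, 32.7 in the falls and 28.3 over all genes, with members between 1.54 FPKM (scaffold00145.g4970) and 1734 FPKM (scaffold00182.g5679).

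Membership moved with the processing. Of the 66 genes, 39 met the rule with centred libraries, 29 with quantile normalization and 57 with a pseudocount of 0.1. With 1 replicate number left out of every group, 43 to 48 of the 66 still met it. In all, 16 rises and 7 falls met it whichever replicate or single 12 h library was left out, and 5 rises and 4 falls under every setting tried. The 4 falls were scaffold00007.g54, scaffold00043.g1789, scaffold00043.g1932 and scaffold00069.g2287. The last of these stood at 7.56, 5.84 and 4.49 FPKM in N-deprived libraries at 12 h, against 12.9, 17.2 and 16.9 FPKM in N-replete libraries. The 5 rises were scaffold00026.g1035, scaffold00185.g5758, scaffold00247.g6771, scaffold00247.g6772 and scaffold00354.g10134. Transcripts of scaffold00185.g5758 stood at 51.9, 50.4 and 50.8 FPKM in N-deprived libraries at 12 h, against 20.6, 21.2 and 23.6 FPKM in N-replete libraries, with little spread in either medium. The early comparison called 33 or 34 rises higher under every other scaling, filter and pseudocount and 31 to 34 with libraries left out.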

How the data were processed

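Messenger RNA was sequenced from 36 libraries (2 media, 6 times, 3 biological replicate cultures each) as paired reads of 90 bases, without strand. The authors deposited FPKM values per gene model. The submitters' processing notes name TopHat2 (2.0.4) and Cufflinks (2.0.2); genome build and annotation are not given in the sources used here. Groups came from the sample titles.

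From these, log2(FPKM + 1) was computed, gene models that reached 1 FPKM in 3 or more libraries were kept (9647), and limma (3.58.1, under R 4.3.3) fitted 1 linear model over all 12 groups, using a trended prior and Benjamini-Hochberg adjustment over all genes kept. The added 1 FPKM understates fold changes of low genes. Fragment counts were not given, so no counting intervals are printed. The members and lists were chosen with earlier results of these data known. Genes named in the text were the largest differences at 12 h, the most abundant members, those with the largest contrasts of 12 h, those nearest the limit and neighbouring members; others were named after their values were seen. Alternatives were another pseudocount, no filter, median-ratio centring, quantile normalization, a baseline of 6 and 24 h, a replicate block and leaving out libraries.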

Additional observations from a re-analysis of the deposited data

Results flagged for a closer look

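Differences of opposite direction at 12 and 48 h were seen in part of the genes. For 18 of the 39 rises every N-deprived library lay above every N-replete library at 12 h and below every one at 48 h, a pattern held by 9.76% of all genes tested. For 13 of the 27 falls the order was the reverse, N-deprived below at 12 h and above at 48 h, against 7.28% of all genes tested. Among genes apart at 12 h in the same direction, 27.7% and 32.3% were turned round at 48 h, against 46.2% of the rises and 48.1% of the falls. The rule sets the order at 12 h and its limits on d at 24 and 48 h shape that at 48 h, so nothing is read from these shares, and the difference between the times was not tested. Among the rises, scaffold00162.g5298 had a difference of -0.86 (log2) at 48 h and scaffold00247.g6646 of -0.81. Among the falls, scaffold00069.g2287 had a difference of 0.58 and scaffold00043.g1789 of 0.57.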

How the results depend on the processing

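Of the recomputed counts, 214 stayed within 1.5 times the reported one and 10 did not. With centring, 5 rises were called lower at 12 h than at other times, and with quantile normalization 7. Quantile normalization gave 45 falls, 11 of them among the 27, and 10 rises called higher late. With 6 and 24 h alone as the other times, 15 rises were called higher at 12 h. Leaving out replicates or single 12 h libraries gave 31 to 60 rises (60 without replicate 3, 30 of them shared) and 19 to 56 falls (56 without replicate 2, 21 shared), and 0 to 2 rises called lower from 3 to 6 h. Of the 66 genes, 39 stayed members with centring, 29 with quantile normalization and 43 without replicate 3. The change of 12 h against other times reversed with centring for scaffold00084.g3210 (0.51), scaffold00182.g5507 (0.55) and scaffold00247.g6832 (0.39), with quantile normalization for the same genes (0.25, 0.24 and 0.012), and with the 6 and 24 h baseline for scaffold00096.g3596 (-0.059), scaffold00182.g5507 (0.047), scaffold00247.g6771 (-0.14), scaffold00247.g6772 (-0.011), scaffold00247.g6773 (-0.012) and scaffold00330.g9571 (-0.18); the cause was not tested.

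With the replicate number as a block, the comparison of 12 h with other times called 23 rises and 17 falls higher, and 14 rises and 9 falls lower. With the number as a block within each medium these counts were the same. Between the media at 1 time, the mean correlation of deviations over 18 same-numbered pairs was 0.023 (-0.274 to 0.413), with 4 over 0.1. Across times within a medium it was -0.032 in N-deprived medium, with 6 of 45 pairs over 0.1, and 0.005 in N-replete medium, with 12 of 45. Summed FPKM did follow the number: replicate 3 was the lowest of its group at all 6 N-deprived times and the highest at all 6 N-replete times. The labels do not say whether a number marks 1 culture over time; if it does, samples of different times are not separate cultures.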
